A study of Saccharomyces cerevisiae with 24 samples.

Results

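The response of budding yeast to hydrogen peroxide was taken from ribosome footprints of cells that had no cycloheximide in the culture medium. Cycloheximide is an inhibitor of translation elongation that is often added before cells are harvested for ribosome profiling. Of the 24 samples of the series, 4 were libraries of this kind in rich YPD medium, 1 from peroxide-treated cells and 3 from unstressed cells, and they were compared gene by gene. The deposited expression table has 5564 lines, each for 1 gene or for several near-identical genes counted together, and 4051 of them averaged at least 10 RPKM over the 4 libraries and were tested. RPKM, reads per kilobase and per M reads (M, 10 to the power of 6), is a footprint density relative to the rest of its library.

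All cells were strain BY4741, a laboratory strain of mating type a, grown at 30°C. The peroxide library came from cells exposed to 0.2 mM hydrogen peroxide for 30 min. The 3 unstressed libraries differed in what the lysate received, either no additive, edeine or aurintricarboxylic acid, which are both inhibitors of translation initiation. For the library with aurintricarboxylic acid the polysomes and monosomes were pooled and digested with RNase only after the gradient. The lysis buffer held cycloheximide in every case, so drug-free refers to the medium, and all 4 libraries were made with primer set 1. Every library is a single one, and the labels do not say whether the 3 unstressed libraries came from separate cultures, so that their spread may be partly technical. The same stress was also profiled with x100 cycloheximide, the highest dose of the series, in the medium, in 2 peroxide and 2 unstressed libraries made with primer set 2. For x100 the cells were first collected by filtration and resuspended in a small volume of YPD, to which the drug was then added.

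Yeast removes peroxide with peroxiredoxins, which pass electrons from NADPH through thioredoxin reductase and thioredoxin, and with glutathione peroxidases, catalases and cytochrome c peroxidase. Most of these genes are known targets of the transcription factor Yap1, which collects in the nucleus once peroxide has oxidised its cysteines. A second programme, driven by Msn2 and Msn4, raises chaperones, trehalose and glycogen enzymes under many stresses, while genes for ribosomes and their assembly are lowered. Footprint density combines the amount of an mRNA with the number of ribosomes on it, and in cultures a change in every cell and a larger change in some cells cannot be told apart.

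The depth recovered from the RPKM values was 10.6 M reads for the peroxide library and 2.55 to 27.9 M reads for the unstressed libraries, lowest with edeine. Across genes, the peroxide library correlated with the unstressed libraries at 0.653 to 0.715 on the log2(RPKM + 1) scale, and the unstressed libraries with each other at 0.974 to 0.982 (Pearson's r across genes, which are not independent). Between 1768 and 2103 genes differed more than 2-fold between the peroxide library and single unstressed libraries, against 80 to 154 genes between pairs of unstressed libraries. The a-specific receptor gene STE2 had 106 RPKM in the peroxide library and 119 to 181 RPKM in the unstressed libraries. The alpha-specific genes MF(ALPHA)1, MF(ALPHA)2 and SAG1 were at or under 0.508 RPKM in all 4 libraries and STE3 was at 4.38 RPKM in the peroxide library and 0.897 to 1.65 RPKM in the unstressed ones, while the a-factor genes MFA1 and MFA2 were listed at 0 in all 4 libraries.

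Peroxide was followed by a wide change in footprint densities. By limma on log2(RPKM + 1), 1763 genes (43.5% of those tested) were called higher and 654 (16.1%) lower at an adjusted p under 0.05, together 59.7%. The peroxide library lay above the range of the 3 unstressed libraries in 64.2% of the genes tested and below it in 23.7%. The spread of the 3 unstressed libraries, with a median SD of 0.22 on this scale, served as the noise, and the single peroxide library was assumed to vary like them. The median gene was 0.59 higher in the peroxide library. With every library set to the same median gene (centred), 858 genes (21.2%) were called higher and 1027 (25.4%) lower. All 858 had also been called higher on the deposited scale and all 654 lower calls were kept, but the share of calls that were higher fell to 45.5%, against 72.9% as deposited. A gene that kept its place relative to the median gene therefore has a change of about 0.59 below, and both counts are given for many of the groups of genes. The shift differed with the level in unstressed cells. Genes of 10 to 100 RPKM there had a median change of 0.63 with 1228 of 2776 called higher and 313 lower, genes of 100 to 1000 RPKM a median of 0.10 with 231 of 782 higher and 227 lower, and genes of over 1000 RPKM a median of -1.99 with 10 of 150 higher and 114 lower. A further 331 genes averaged under 10 RPKM in unstressed cells and entered the test only through the peroxide library, so that they had to be higher in it. Among the other 3720, 1477 were called higher and 654 lower with a median of 0.50. Group counts are therefore also given for members whose unstressed mean alone reached 10 RPKM, for the groups with many others.

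Peroxiredoxins and their reductants were among the genes with the largest rises. TSA2, a cytosolic peroxiredoxin, had 12240 RPKM in the peroxide library, against 9.28, 8.80 and 18.8 RPKM in the unstressed libraries (no additive, edeine and aurintricarboxylic acid, in this order here and below). Its change was 9.93 ± 0.37 (log2, SE, limma adjusted p = 4.04e-11), the largest of the genes tested. SRX1 encodes sulfiredoxin, which restores peroxiredoxins that peroxide has overoxidised, and had 5630 RPKM in the peroxide library, against 4.67, 6.91 and 9.13 RPKM. The groups did not overlap in either gene, and among the unstressed libraries the one with aurintricarboxylic acid was the highest in both.

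Several other members had high densities in unstressed cells already. AHP1, a thioredoxin-dependent peroxiredoxin, had 27370 RPKM in the peroxide library, against 6415, 6362 and 8942 RPKM, and TSA1, the main cytosolic peroxiredoxin, had 18430 RPKM, against 3561, 3987 and 4195 RPKM. Their changes of 1.94 and 2.24 were far smaller than that of TSA2 although their final densities were higher. TSA1 and TSA2 are related in sequence, and how reads that align to both were counted is not stated. The cytosolic thioredoxin TRX2 had 17260 RPKM in the peroxide library and 922 ± 89.1 RPKM in the unstressed libraries (SD, n = 3), an 18.7-fold difference. Its paralog TRX1 had 937 RPKM, against 758, 893 and 924 RPKM, and did not pass the test (log2 change 0.13, adjusted p = 0.646, and -0.49 when centred). Thioredoxin reductase TRR1, which recharges both, rose 15.3-fold to 7223 RPKM, and the mitochondrial peroxiredoxin PRX1 rose by 4.96 on the log2 scale to 1671 RPKM. Of the 11 genes of the peroxiredoxin and thioredoxin list 10 were tested and 9 called higher on either scale, with a median change of 3.09 (2.47 centred). SRX1 entered the test only through the peroxide library, and of the other 9 tested genes 8 were called higher, with a median of 2.24.

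**Figure D1:**
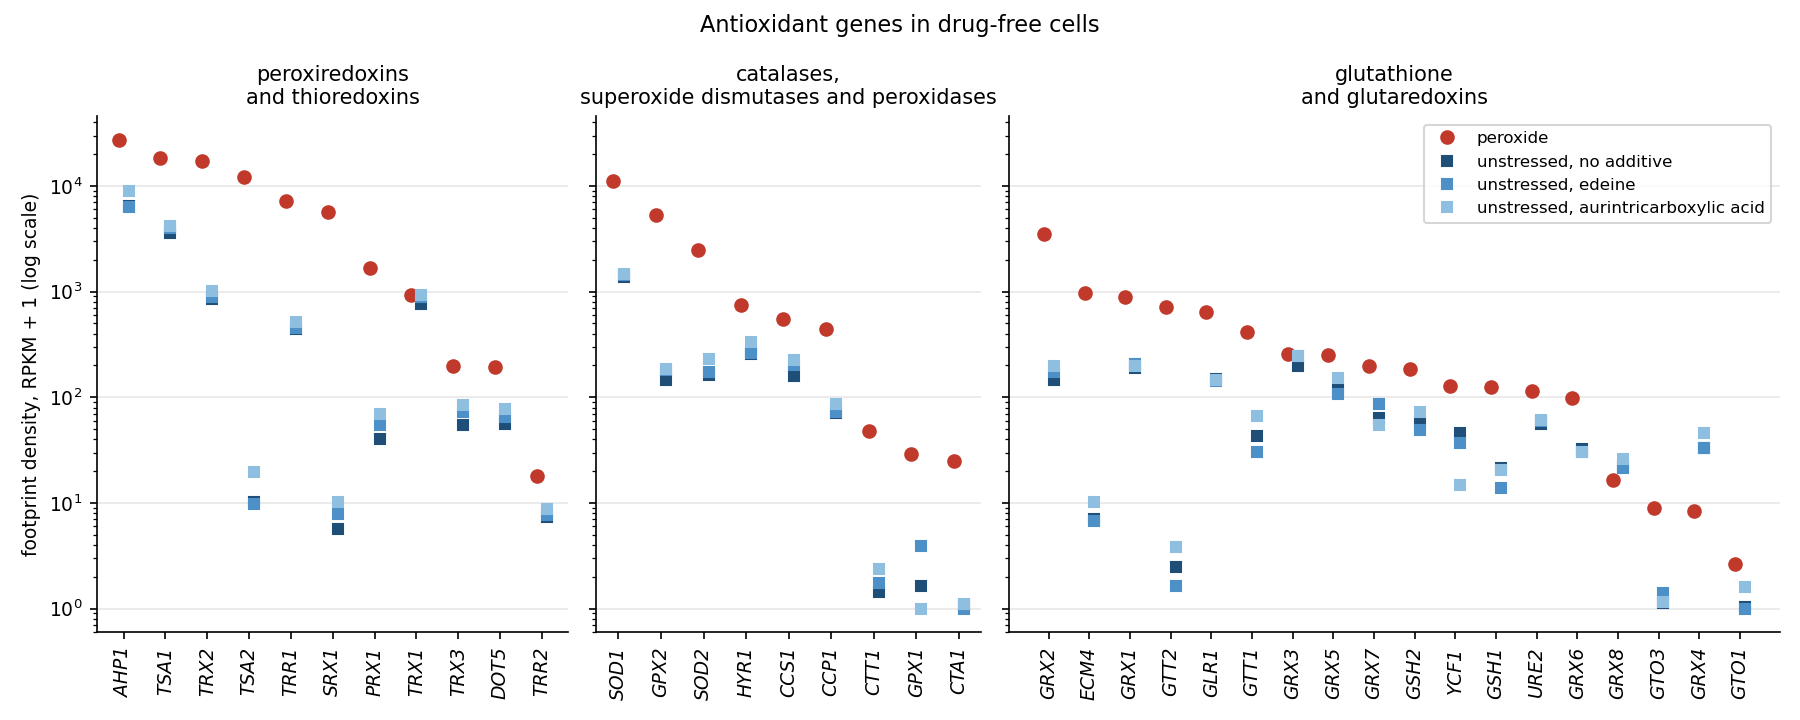
Footprint density (RPKM + 1, log scale) of each antioxidant gene in the peroxide library (red circles) and in the 3 unstressed libraries (blue squares), in 3 panels by function and ordered by the level under peroxide. TSA2 stands at 12240 RPKM under peroxide and at 8.80 to 18.8 RPKM without, TRX1 touches its unstressed values, and GRX4 lies below them.

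Superoxide dismutases and peroxidases rose as well. SOD1, the cytosolic copper-zinc superoxide dismutase, had 11080 RPKM in the peroxide library, against 1377, 1438 and 1479 RPKM, and its mitochondrial counterpart SOD2 had 2456 RPKM, against 161, 174 and 229 RPKM. CCS1, the chaperone that loads SOD1 with copper, rose less (552 RPKM, against 195 ± 35.2 RPKM, log2 change 1.51). Among the glutathione peroxidases, GPX2 rose 31.2-fold to 5271 RPKM, and HYR1, the peroxidase that senses peroxide for Yap1, rose 2.63-fold to 746 RPKM. The catalases stayed low in absolute density even under peroxide. Cytosolic catalase CTT1 had 46.5 RPKM in the peroxide library, against 0.451, 0.741 and 1.36 RPKM (log2 change 4.71 ± 0.43, adjusted p = 2.65e-07). Peroxisomal catalase CTA1 had 24.1 RPKM, against 0.074, 0 and 0.1 RPKM, and was below the level required for the test. All 7 tested genes of this list of 9 were called higher, also when centred, with a median change of 2.95 (2.33 centred). CTT1 was the 1 member tested only through its level under peroxide.

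Glutathione genes were split between transferases that rose to differing degrees, biosynthesis genes that rose moderately and glutaredoxins that went both ways. GTT2, a glutathione transferase, had 720 RPKM in the peroxide library, against 1.49, 0.652 and 2.87 RPKM, a change of 8.16 ± 0.42 (adjusted p = 8.57e-10). ECM4, also a glutathione transferase, rose by 6.93 on the log2 scale to 961 RPKM. GTT2 and ECM4 both entered the test only through the peroxide library. GTT1, a transferase with higher unstressed levels, had 410.5 RPKM, against 41.7, 29.2 and 65.5 RPKM. GSH1, which catalyses the limiting step of glutathione synthesis, rose 7.05-fold, GSH2, the next enzyme, 3.14-fold, and the glutathione reductase GLR1 4.43-fold. The dithiol glutaredoxins GRX1 and GRX2 rose by 2.16 and 4.36. GRX4, one of the monothiol glutaredoxins that handle iron-sulfur clusters and restrain the iron regulator Aft1, was lower (7.42 RPKM, against 31.9, 32.2 and 45.4 RPKM, log2 change -2.13, adjusted p = 3.99e-05), while its paralog GRX3 had 256 RPKM, against 196, 242 and 246 RPKM, and was not called. In all, 13 of 16 tested members were called higher and 1 lower (11 and 2 centred). Of the 14 that reached 10 RPKM in unstressed cells, 11 were called higher.

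Genes that detoxify carbonyls and quinones, or regenerate the NADPH these systems consume, formed a further block. All 12 tested NADPH oxidoreductases, of 13 listed, were called higher on both scales, with a median change of 3.94. The 8 that reached 10 RPKM in unstressed cells had a median of 2.62. The old yellow enzyme OYE3 had 284 RPKM in the peroxide library, against 0.293, 1.07 and 0.392 RPKM, while its paralog OYE2 had 3963 RPKM, against 831, 747 and 839 RPKM. OSI1 (951 RPKM under peroxide, 1.52 ± 1.14 RPKM without), the nitroreductase-like genes FRM2 and HBN1 and the reductase GCY1 rose by 8.66, 7.08, 6.66 and 6.91. OYE3, OSI1, FRM2 and GCY1 were tested only through their level under peroxide. In the pentose phosphate pathway the change differed between steps and between the paralogs described here. ZWF1, the glucose-6-phosphate dehydrogenase that makes NADPH, had 920 RPKM in the peroxide library, against 115, 119 and 156 RPKM. SOL4 (457 RPKM, against 1.13, 4.11 and 3.02 RPKM), GND2 (log2 change 5.11) and NQM1 (5.21), minor isoforms of the lactonase, 6-phosphogluconate dehydrogenase and transaldolase, rose, whereas the major isoforms GND1 (779 RPKM, against 891, 917 and 907 RPKM) and TAL1 (831 RPKM, against 755, 875 and 783 RPKM) were not called as deposited. When centred, GND1 was called lower (-0.84). SOL4, GND2 and NQM1 averaged under 10 RPKM in unstressed cells and were tested only through the peroxide library, so they had to be higher in it. The non-oxidative enzymes TKL1 and RKI1 fell by 1.54 and 2.73. The 12 tested genes of the list had 6 called higher and 4 lower, and 5 each when centred, and the 9 that reached 10 RPKM in unstressed cells had 3 higher and 4 lower.

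Drug efflux and repair genes known as Yap1 targets followed. FLR1, a plasma membrane drug transporter, had 151 RPKM in the peroxide library and 0.093 RPKM in the unstressed library with no additive, and was listed at 0 in the other 2. ATR1, another transporter of this family, rose 12.1-fold to 99.4 RPKM. Of 10 efflux pumps tested 9 were called higher, and 5 when centred, and 4 of the 10 were tested only through their level under peroxide. HSP31, a chaperone with methylglyoxalase activity, had 1046 RPKM in the peroxide library, against 20.2, 32.0 and 43.7 RPKM, and the flavodoxin-like PST2 rose 6.38-fold. Of 10 tested protein and lipid repair genes 8 were called higher (6 higher and 1 lower centred), with a median change of 1.60. A pair of genes with known roles in oxidant defence did not pass the test as deposited. The methionine sulfoxide reductase MXR1 had 170 RPKM, against 112, 98.4 and 116 RPKM (log2 change 0.64, adjusted p = 0.0572), and the flavohemoglobin YHB1, which consumes nitric oxide, had 340 RPKM, against 600, 427 and 363 RPKM (-0.41, adjusted p = 0.227, and -1.03 with an adjusted p of 0.0192 when centred).

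Most genes for the regulators of these programmes rose. YAP1 had 259 RPKM in the peroxide library, against 34.8, 47.5 and 39.0 RPKM, a 6.41-fold rise. CIN5, a relative of Yap1, rose by 2.86, MSN4 by 2.40, RPN4, the activator of proteasome genes, by 1.71 and GCN4, the activator of amino acid synthesis genes, by 1.43. SKN7, which acts with Yap1 at many of the antioxidant promoters, had 21.2 RPKM, against 24.7, 27.7 and 28.8 RPKM, and was not called (-0.33, adjusted p = 0.343). Centred on the median gene it was called lower (-0.95). Among 15 stress regulators tested, 13 were called higher as deposited, and 8 higher and 1 lower when centred.

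The general stress genes, a list of known Msn2 and Msn4 targets, had the highest median of all lists, 4.77 (4.15 centred), and all 31 tested members, of 36 listed, were called higher on both scales. Of the 31, 16 averaged under 10 RPKM in unstressed cells and were tested only because they were higher under peroxide. The other 15 were all called higher, with a median of 4.55. HSP12, a small membrane-protecting stress protein, had 6718 RPKM in the peroxide library, against 15.4, 29.0 and 70.2 RPKM (log2 change 7.68 ± 0.52, adjusted p = 1.53e-08). DDR2 had 1704 RPKM in the peroxide library and 1.25 and 13.4 RPKM in 2 unstressed libraries, and was listed at 0 with edeine. Its log2 change of 9.06 became 10.15 without the control with aurintricarboxylic acid and 8.23 without the one with edeine. RTN2, a reticulon of the endoplasmic reticulum, rose by 8.55 and RGI1 by 7.88. EGO4 (log2 change 7.89), on no list, ranged with them. The 3 controls did not have one level of this programme. Its median was 0.69 higher with aurintricarboxylic acid and 0.40 higher with edeine than with no additive, against 0.17 and 0.07 for all genes tested, which was small beside the change with peroxide.

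Storage carbohydrate genes rose nearly as far. PGM2, the phosphoglucomutase that feeds glycogen and trehalose synthesis, had 1599 RPKM in the peroxide library, against 4.97, 7.07 and 12.8 RPKM, while its paralog PGM1 had 104 RPKM, against 115, 107 and 111 RPKM. TPS1, the trehalose-6-phosphate synthase, rose 17.6-fold to 1992 RPKM, and its regulatory partner TSL1 rose 70.0-fold to 982 RPKM. Genes of synthesis and of breakdown rose together, as the branching enzyme GLC3 (5.64) and the glycogen phosphorylase GPH1 (5.80) did. PGM2, GLC3 and GPH1 entered the test only through the peroxide library. Of 14 tested members, from 20 listed, 13 were called higher (12 centred, with PGM1 called lower), and among the 8 that reached 10 RPKM in unstressed cells 7 were. The glucose-phosphorylating enzymes again differed by isoform. HXK1 had 1938 RPKM, against 25.7, 43.7 and 68.9 RPKM, and GLK1 had 2584 RPKM, against 65.0, 71.7 and 147 RPKM. HXK2, the main hexokinase of growing cells, had 1805 RPKM, against 1625, 1305 and 1604 RPKM, and was not called (0.26 as deposited and -0.36 centred). GPD1, the glycerol-3-phosphate dehydrogenase that responds to osmotic stress, rose 8.29-fold.

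**Figure D2:**
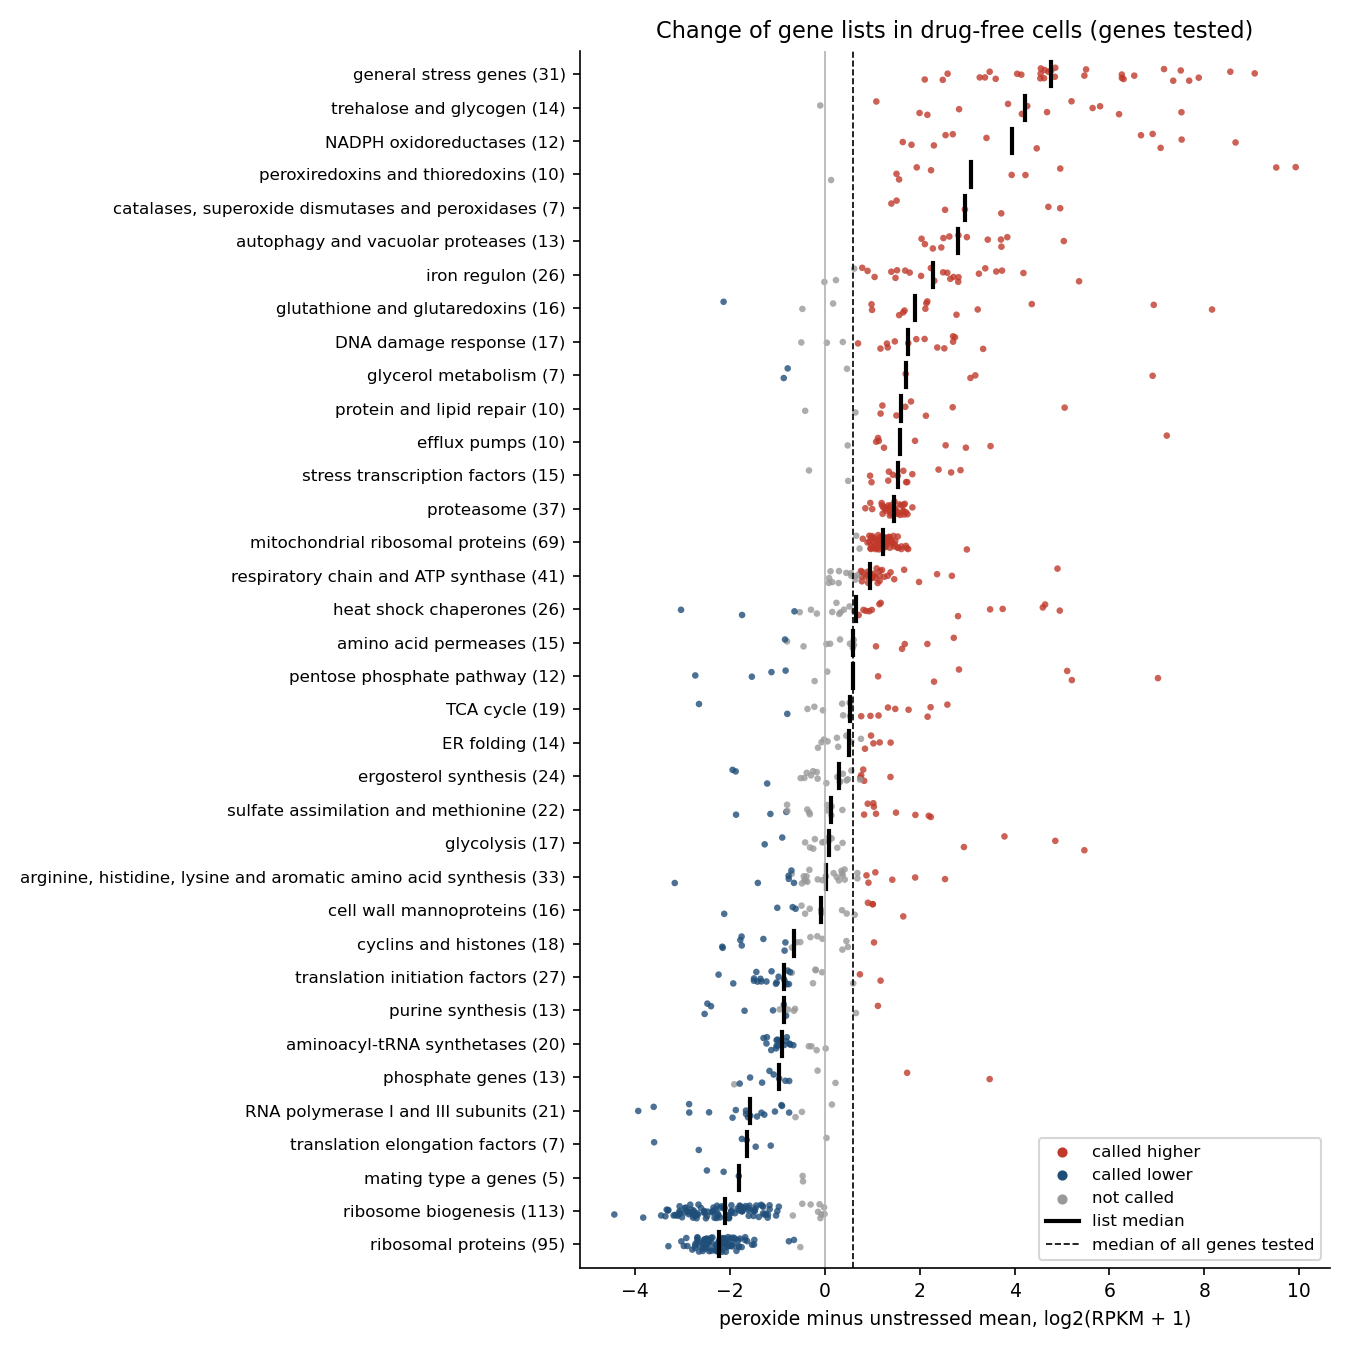
Change of each tested gene (points, peroxide minus the unstressed mean in log2(RPKM + 1)) for the gene lists with at least 5 genes tested, with the list median as a black bar, the number tested in brackets, calls as deposited in red (higher) and blue (lower), and the median of all genes at 0.59 as a dashed line. General stress genes lie highest with a median of 4.77 and ribosomal proteins lowest with -2.22.

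Chaperones did not move as 1 group. The disaggregase HSP104 had 1650 RPKM in the peroxide library, against 92.4, 144 and 136 RPKM, and the small heat shock proteins HSP42 and HSP26 rose by 4.95 and 4.60. SSA4, the stress-inducible cytosolic Hsp70, had 196 RPKM, against 4.88, 9.66 and 6.85 RPKM, and entered the test only through the peroxide library. SSB1/SSB2, the ribosome-bound Hsp70 pair counted together, had 278 RPKM, against 2307, 2119 and 2425 RPKM, and fell by 3.03. YDJ1, the main cytosolic Hsp40, fell by 1.74. Of 26 tested members 13 were called higher and 3 lower, a balance that became 6 and 6 when centred. Of the 24 that reached 10 RPKM in unstressed cells, 12 were called higher and 3 lower as deposited. In the endoplasmic reticulum, 5 of 14 folding genes were called higher and none lower, with a median of 0.51, below that of all genes tested, and none was called in either direction when centred.

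Protein breakdown genes rose in a narrow band. All 37 proteasome subunits and assembly genes were called higher, with changes between 0.85 for the ubiquitin receptor RPN10 and 1.85 for the tethering protein ECM29 and a median of 1.45. RPN8 of the lid had 594 RPKM in the peroxide library, against 164, 179 and 189 RPKM. Centred, 28 of the 37 were called higher with a median of 0.83. The call of RPN10 was lost when centred and without the control with no additive (0.66) or the one with edeine (0.82). Autophagy and vacuolar genes rose further, with 13 of 13 tested called higher on both scales and a median of 2.82 (9 of 9 for those at 10 RPKM or more in unstressed cells), among them the vacuolar aminopeptidase APE1 (1303 RPKM, against 34.8, 38.0 and 43.8 RPKM), ATG8, whose product coats autophagosomes (3.85), and the vacuolar protease PEP4 (2.46). The other 12 lines of that list were below the level required for the test.

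Genes of the DNA damage response and of iron uptake also moved. Of 17 tested damage genes 14 were called higher (11 higher and 1 lower centred), and 9 of the 12 that reached 10 RPKM in unstressed cells. HUG1, a small inhibitor of ribonucleotide reductase, had 143 RPKM in the peroxide library, against 22.1, 3.67 and 25.6 RPKM, and its log2 change of 3.34 became 2.53 without the edeine control. The 3-methyladenine glycosylase MAG1, which removes alkylated bases, rose 6.98-fold. Of 26 iron genes, most of them targets of Aft1, 23 were called higher and none lower (19 and none centred), with a median of 2.27, or 21 of 24 with unstressed levels of at least 10 RPKM. HMX1, a heme oxygenase, had 348 RPKM, against 3.19, 14.3 and 8.61 RPKM. The cell wall mannoproteins that retain siderophore iron stood out by density, with FIT2 at 12060 RPKM, against 573, 1310 and 986 RPKM, and FIT3 at 7107 RPKM, against 482, 771 and 849 RPKM. FIT1 rose 17.6-fold, the siderophore transporter ARN2 11.4-fold and the iron-sulfur scaffold ISU2 9.55-fold. The multicopper oxidase FET3 changed by 0.79, a call lost when centred.

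Mitochondrial ribosomal protein and respiratory genes rose modestly, and fewer of them were called when centred on the median gene. Mitochondrial ribosomal proteins had a median change of 1.22 (0.60 centred) with 67 of 69 called higher, but 15 when centred. Their lowest change was 0.66, so all lay above the median gene at 0.59. The respiratory chain and ATP synthase had a median of 0.95 (0.33 centred) with 29 of 41 called higher, but 8 when centred. CYC7, the minor cytochrome c, had 88.0 RPKM in the peroxide library, against 1.19, 1.62 and 3.57 RPKM, and the major form CYC1 also rose, 3.93-fold to 267 RPKM. Only its level under peroxide brought CYC7 into the test. COX5B, the hypoxic cytochrome oxidase subunit, rose by 2.68. In the citric acid cycle, the citrate synthase CIT1 (2.17) and the isocitrate dehydrogenase subunit IDH2 (2.58) rose.

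Genes for ribosome production fell widely. Of 95 ribosomal protein lines 94 were called lower as deposited and 95 when centred, with none higher and a median change of -2.22 (-2.84 centred). RPS22A had 318 RPKM in the peroxide library, against 2667, 3428 and 3385 RPKM, and RPL22A had 540 RPKM, against 4046, 4567 and 4156 RPKM. RPL10, which is added late in large subunit assembly, had 3669 RPKM, against 5495, 6165 and 5644 RPKM. Its change of -0.65 was among the smallest of the list, and its call was lost without the control with aurintricarboxylic acid (-0.67). RPS30A had 261 RPKM, against 394, 316 and 422 RPKM, and was the 1 line not called as deposited. Many ribosomal protein genes have near-identical copies, so the values of single copies are uncertain.

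Ribosome assembly fell alongside, with 104 of 113 tested biogenesis genes called lower, none higher, and a median of -2.11. RRP5, needed for processing of both ribosomal RNAs, had 5.42 RPKM in the peroxide library, against 145, 167 and 109 RPKM (log2 change -4.44 ± 0.31, adjusted p = 2.15e-08). The nucleolar protein NSR1 had 39.4 RPKM, against 745, 606 and 418 RPKM, and ERB1, a large subunit assembly factor, fell by 3.45. The 2 largest subunits of RNA polymerase I, which transcribes ribosomal RNA, fell together. RPA190 had 5.97 RPKM, against 126, 110 and 85.3 RPKM, and RPA135 had 9.87 RPKM, against 162, 128 and 110 RPKM. Among 21 subunits of RNA polymerases I and III 18 were called lower.

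Translation factors fell to differing degrees. YEF3, the fungal elongation factor 3, had 259 RPKM in the peroxide library, against 3261, 3369 and 2836 RPKM (log2 change -3.60 ± 0.21, adjusted p = 4.35e-09). EFB1, the exchange factor of eEF1A, fell 6.34-fold. Initiation factors had a median of -0.86, with 19 of 27 called lower. The poly(A)-binding protein PAB1 fell 4.77-fold and the scaffold TIF4631 (eIF4G1) 3.93-fold, whereas EAP1, a repressor that binds eIF4E, rose by 1.17 and HCR1, a subunit of eIF3, by 0.74. When centred, neither rise was called (0.55 and 0.12), and that of HCR1 was also lost without the control with no additive (0.58). Of 20 aminoacyl-tRNA synthetases 16 were called lower and none higher, in a narrow band down to -1.29 for the alanyl enzyme ALA1.

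**Figure D3:**
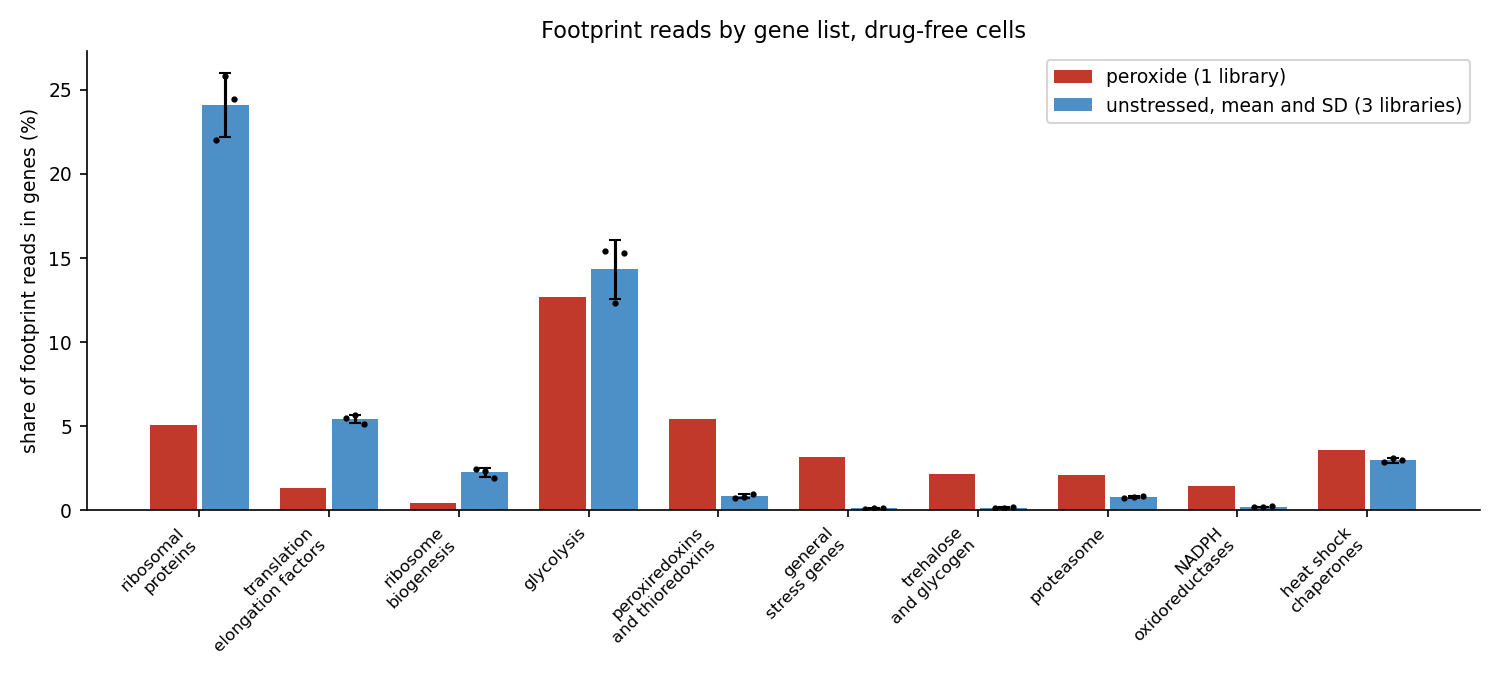
Share of each library's footprint reads in genes (%) held by 10 gene lists, as red bars for the peroxide library and blue bars for the mean of the 3 unstressed libraries with SD and points for single libraries, with reads computed from gene lengths that include introns. Ribosomal proteins hold 5.07% under peroxide and 24.1 ± 1.92% without, and peroxiredoxins and thioredoxins 5.42% and 0.826%.

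In terms of where the ribosomes were, ribosomal protein genes held 5.07% of footprint reads in the peroxide library and 24.1 ± 1.92% in the unstressed libraries (SD, n = 3). The gene lengths used for this include introns and so overstate the share of intron-bearing genes in all libraries alike. The ratio between the groups was 0.21, and it was 0.21 also for shares of summed RPKM, which need no length. Peroxiredoxins and thioredoxins held 5.42% of reads in the peroxide library and 0.826 ± 0.118% in the unstressed libraries, so these 11 genes took a share close to that of all ribosomal proteins. General stress genes held 3.16% with peroxide and 0.132 ± 0.030% without, trehalose and glycogen genes 2.16% and 0.145 ± 0.021%, and the proteasome 2.07% and 0.793 ± 0.074%. Elongation factors held 1.34% with peroxide and 5.42 ± 0.251% without. Glycolysis was the largest remaining block in both, with 12.7% and 14.3 ± 1.75%, within the range of the unstressed libraries. With 1 library against 3, an exact permutation test of a share cannot give a p under 0.25.

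Biosynthesis and growth genes fell more selectively. GLT1, the glutamate synthase, had 1.62 RPKM in the peroxide library, against 76.2, 44.5 and 55.2 RPKM, the lowest log2 change of the genes tested (-4.47 ± 0.33, adjusted p = 4.17e-08). Its value under peroxide rested on 109 reads, with a 95% Poisson interval of 1.33 to 1.96 RPKM that covers counting error only. Of the 10 genes with the largest falls, 3 others act in nucleotide metabolism. The adenine deaminase AAH1 had 6.09 RPKM, against 171, 145 and 138 RPKM, the CTP synthase URA7 had 14.2 RPKM, against 299, 268 and 256 RPKM, and the purine salvage enzyme HPT1 had 14.0 RPKM, against 354, 173 and 183 RPKM. MAE1, the mitochondrial malic enzyme, fell by 4.02.

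De novo purine synthesis fell too, with 7 of 13 called lower and 1 higher, but its controls disagreed. ADE17, which completes inosine monophosphate, had 24.9 RPKM in the peroxide library, against 476, 75.5 and 91.8 RPKM, so its log2 change of -2.54 became -1.70 without the control with no additive. The median of the list was 0.98 lower with edeine and 0.91 lower with aurintricarboxylic acid than with no additive, as large as its change with peroxide (-0.86). GUA1, the GMP synthase, was stable among controls (590, 478 and 568 RPKM) and had 102 RPKM with peroxide. Amino acid synthesis showed no common direction as deposited, and had more lower than higher calls when centred. Of 33 genes for arginine, histidine, lysine and aromatic amino acids 6 were called higher and 6 lower (2 and 15 centred). Sulfur assimilation and methionine genes had 9 of 22 called higher and 3 lower (4 and 8 centred). Of the 18 that reached 10 RPKM in unstressed cells, 6 were called higher and 3 lower. In lysine synthesis the first step, LYS21/LYS20, rose by 1.90, while the homoaconitase LYS4, an iron-sulfur enzyme, had 3.33 RPKM, against 46.8, 34.7 and 33.2 RPKM. Of 18 cyclin and histone lines 8 were called lower, among them the G1 cyclin CLN2 (6.31 RPKM, against 36.5, 25.8 and 33.3 RPKM) and the histone pair HTA2/HTA1 (318 RPKM, against 1352, 1461 and 1465 RPKM).

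The x100 libraries gave the same comparison in cells and libraries that the drug-free values did not use. There 2275 genes (55.5%) were called higher and 807 (19.7%) lower of 4101 tested, together 75.2%, or 31.8% and 34.8% when centred. Of 1735 genes called higher in drug-free cells and tested at x100, 1731 had a positive change there and 1686 were called higher. Of 649 called lower, 645 had a negative change and 615 were called lower. Across 3979 genes the changes correlated at 0.957 (Pearson) and 0.953 (Spearman), as a description across genes. The distribution of changes was wider in drug-free cells, with an interquartile range of 1.40, against 1.22 at x100. TSA2 rose by 9.93 in drug-free cells and by 8.35 at x100, ribosomal proteins had medians of -2.22 and -2.22 and the proteasome 1.45 and 1.50, while ribosome biogenesis was at -2.11 in drug-free cells and -1.38 at x100.

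**Figure D4:**
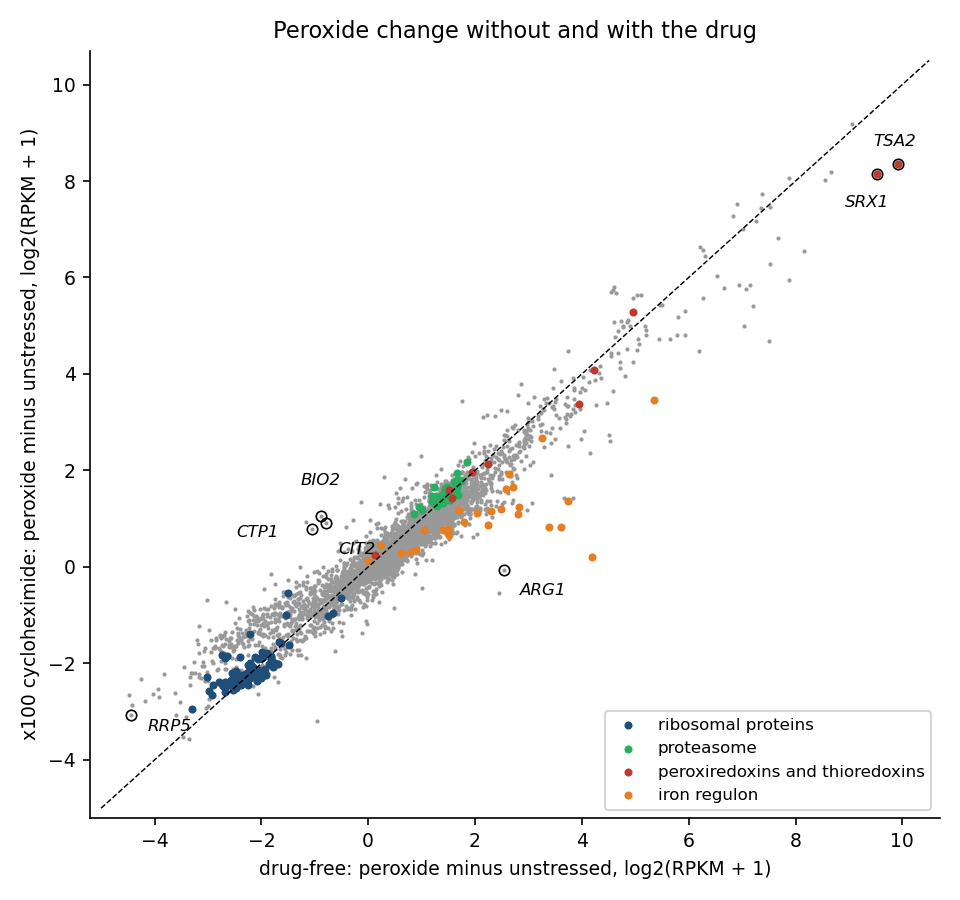
Peroxide minus unstressed change per gene (log2(RPKM + 1)) in drug-free cells (x axis) and at x100 cycloheximide (y axis), with the line of equal change dashed, 4 gene lists in colour and named genes circled. Most genes lie near the line, iron genes (orange) lie below it with medians of 2.27 drug-free and 0.90 at x100, and ARG1 stands at 2.53 drug-free and -0.06 at x100.

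Only 3 genes were called in opposite directions, all lower in drug-free cells and higher at x100. They are CIT2, the peroxisomal citrate synthase (-0.79 drug-free and 0.91 at x100), BIO2, the biotin synthase (-0.89 and 1.05), and CTP1, the mitochondrial citrate carrier (-1.06 and 0.80). None passed the test of the difference itself (adjusted p of 0.141, 0.106 and 0.11), and the drug-free calls of CTP1 and BIO2 were lost without the control with no additive (-0.93) and the one with edeine (-0.76). The iron genes had a median change of 2.27 in drug-free cells and 0.90 at x100, where 14 of 26 were called higher. Their x100 libraries disagreed among themselves. FIT1 had 426 and 17.4 RPKM in the x100 peroxide libraries, against 248 and 23.0 RPKM in the x100 unstressed libraries, and FIT2 had 8956 and 2225 RPKM, against 3689 and 808 RPKM. In both genes the first library of each group was the higher one.

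A single gene of 4089 tested passed the test of the difference between the 2 peroxide effects (0.0245%), with 385 at an unadjusted p under 0.05. ARG1 encodes argininosuccinate synthetase of the arginine pathway. It had 438 RPKM in the drug-free peroxide library, against 69.6, 73.3 and 82.0 RPKM in the unstressed ones. At x100 it had 127 and 122 RPKM with peroxide, against 140 and 121 RPKM without. The difference in log2 change was 2.60 ± 0.24 (SE, limma adjusted p = 0.0111). The call was lost without x100 peroxide library 1 or 2 or x100 unstressed library 1 (adjusted p = 0.0706, 0.0816 and 0.123), and the count of calls ranged from 0 to 47 when single libraries were left out, the 47 without the control with aurintricarboxylic acid. Cycloheximide in the medium, the primer set and the handling of the cells before freezing cannot be told apart in this comparison.

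The position of footprints along genes was taken from the deposited occupancy profiles, the average coverage of genes relative to the last 300 nt plotted, with 1 profile per library. Whether peroxide moves ribosomes toward the start of genes in the absence of the drug was the question of this comparison. From nt 31 to 200 the mean coverage was 1.53 in the peroxide library, against 1.38, 1.76 and 1.47 in the unstressed libraries. The peroxide value lay inside their range and differed from their mean of 1.53 ± 0.20 by -0.0012. Around the start codon, from nt -20 to 30, it was 1.12 with peroxide and 1.12 ± 0.0949 without. Just upstream, from nt -50 to -21, it was 0.136 with peroxide, above the 0.105, 0.126 and 0.109 of the unstressed libraries (exact permutation test, two-sided p = 0.25, the smallest that 1 against 3 libraries can give). At x100 the same upstream window held 0.338 and 0.708 with peroxide, against 0.12 and 0.14 without, and the start codon window held 6.01 and 10.8, against 3.39 and 3.25. The edeine library set the upper end of the drug-free range, and without it the peroxide value from nt 31 to 200 lay above both other unstressed libraries, by 0.112 from their mean.

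**Figure D5:**
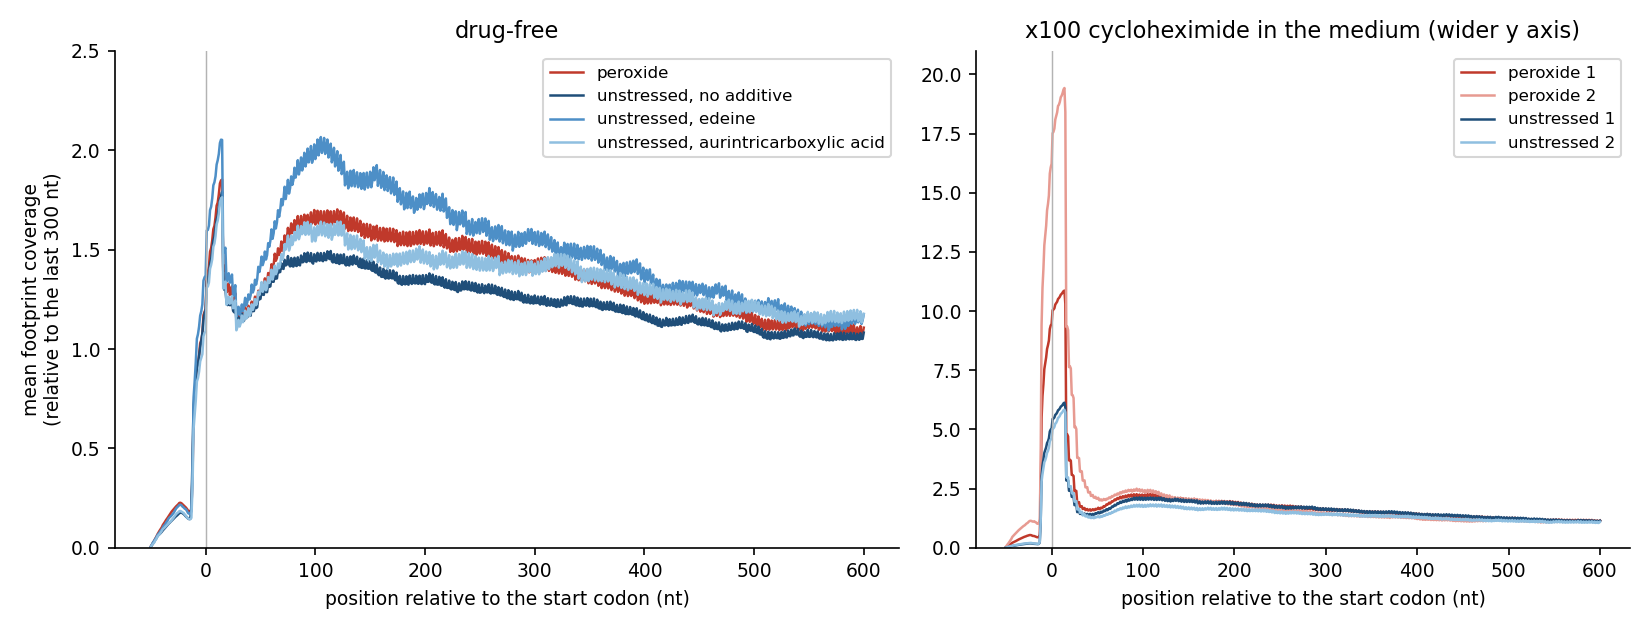
Average footprint coverage (relative to the last 300 nt) by position from the start codon in drug-free libraries (left) and x100 libraries (right, wider y axis), with peroxide in red and unstressed in blue. Drug-free, the peroxide curve runs between the unstressed curves (1.53 from nt 31 to 200, against 1.38 to 1.76), and at x100 the peroxide libraries have the taller start codon peaks.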

How the data were processed

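Footprints had been aligned by the authors to the S288C genome with Bowtie 0.12.7, and the authors deposited RPKM values per gene and library, computed with their own scripts. Which reads enter the total and how multiply aligned reads were counted is not given in the sources used here. The deposited occupancy profiles hold coverage signal of single-exon genes, which the authors scaled to the average of its last 300 nt. Depth was recovered from low RPKM values, which correspond to whole reads (95.8 to 98.6% within 0.1 read) once 100 nt are taken off each gene length. Intervals cover counting error only. Of 5564 lines, 5446 matched a RefSeq gene and 116 join several genes.

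The members and gene lists were chosen with earlier results of these data known. Values were compared on log2(RPKM + 1), which understates the change of low genes, with limma 3.58.1 in R 4.3.3 (variance trend, two-sided moderated test, Benjamini-Hochberg adjustment over all genes tested, threshold 0.05), over lines with a mean of at least 10 RPKM. The same fit was used for the 4 x100 libraries, and a fit over all 8 for the difference. In data simulated for the drug-free comparison on 3952 genes, 56.7% of 2-fold, 98.5% of 4-fold and 100% of 8-fold changes were recovered, with 3 false calls. Every simulated gene had the median SD of the controls, the peroxide library had the same noise, and no library was shifted as a whole. The recovery and false calls hold for these settings only. Named genes are the 10 with the largest change each way that were called on both scales and lay outside the range of the controls, the antioxidant enzymes, and up to 5 members each way of other lists. Genes whose difference between drug-free and x100 cells is described were chosen by that result, and members described because they contrast with a paralog or were not called were chosen after their values were seen. Alternatives were other pseudocounts, filters, centring, quantile normalization, a single prior variance, a minimum change, the fit over 8 libraries, a replicate block at x100, other profile windows and leaving out libraries. Shares of summed RPKM and the profile without single controls were chosen after seeing the data. Promoter motifs were not analysed here. Python 3.11.15 with pandas 2.3.3 and matplotlib 3.10.9 was used for shares, profiles and figures.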

Additional observations from a re-analysis of the deposited data

Results flagged for a closer look

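The peroxide effect on ARG1 differed between drug-free and x100 cells by 2.60 on the log2 scale (± 0.24 SE, limma adjusted p = 0.0111), with a change of 2.53 in drug-free cells, where the 1 peroxide library lay above all 3 unstressed libraries, and -0.06 at x100. Under peroxide at the other doses of cycloheximide, from x1/64 to x8, ARG1 had 160, 85.9, 103, 191 and 116 RPKM in single libraries, and in unstressed cells at these doses 83.4, 64.2, 138, 90.9 and 92.1 RPKM. In drug-free cells it had 117 RPKM after heat shock in YPD and 227 RPKM in complete synthetic SD medium. In SD medium with no amino acids it had 2091 RPKM, and in the same medium with only His, Met and Leu added 3486 RPKM. The 438 RPKM of the drug-free peroxide library was thus the highest value in rich medium and lay below both media without the full set of amino acids. The libraries of these other doses, heat shock and SD media were single ones.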

How the results depend on the processing

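Of the 2417 calls with peroxide in drug-free cells, the count stayed within 1.5-fold under 11 of 12 alternatives, with 2123 to 2670 when single controls were left out (1534 to 1978 higher, 589 to 692 lower). With a mean of at least 30 RPKM it was 1570, 1035 of them higher, where fewer genes were tested. Centring gave 858 higher and 1027 lower, and quantile normalization 898 higher. At x100, centring gave 1303 higher and 1428 lower, and leaving out single libraries 2517 to 3086 calls. The numbers 1 and 2 of the x100 libraries gave a pairing correlation of 0.436 over only 2 pairs, and with a replicate block 3210 genes were called at x100 and 1 in the difference, so the block changed no count by over 1.5 times. The drug-free peroxide library has no number to pair. The difference had 9 calls with a pseudocount of 0.1, 10 with a pseudocount of 10 and 0 to 47 when single libraries were left out, where at a count of 0 limma still gave 216 to 373 genes at an unadjusted p under 0.05. The cause was not tested.

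Directions reversed by centring were those of values between 0 and the shift that centring takes off: TRX1 (-0.49), GRX3 (-0.45), TAL1 (-0.57), HXK2 (-0.36), and the medians of amino acid permeases (-0.031), arginine, histidine, lysine and aromatic synthesis (-0.60), ER folding (-0.11), ergosterol synthesis (-0.33), glycolysis (-0.54), the pentose phosphate pathway (-0.033), sulfate assimilation and methionine (-0.48), the TCA cycle (-0.081) and all genes (-0.031). Under quantile normalization GRX3 (-0.41), permeases (-0.023), arginine to aromatic synthesis (-0.59), ergosterol (-0.30), sulfate assimilation (-0.26), the TCA cycle (-0.025) and cell wall mannoproteins (0.26) reversed. Without a filter hexose transporters reversed (0.49), at 30 RPKM sulfate assimilation (-0.13) and without the edeine control glycolysis (-0.11, against at most 0.12 without another control). The broad peak differed from the mean of the controls by less than the SD of all 3 in each window tried, and by -0.0801 to 0.112 when single controls were left out, the highest without edeine, where peroxide lay above both remaining controls. Changes of 2-fold were recovered in 56.7% of simulated cases, so genes not called may have changed by that much.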

Other observations

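Some smaller gene groups had calls in both directions in drug-free cells. Of 24 ergosterol genes 5 were called higher and 3 lower (1 and 10 centred). Cell wall mannoproteins had 4 of 16 called higher and 4 lower (1 and 8 centred). Amino acid permeases had 5 of 15 called higher and 1 lower (4 and 3 centred). Of the 12 permeases that reached 10 RPKM in unstressed cells, 2 were called higher and 1 lower. Of 13 phosphate genes 8 were called lower and 2 higher, with a median change of -0.96, and the median of this list was also 0.46 lower with edeine and 0.51 lower with aurintricarboxylic acid than with no additive. Both higher calls were of genes tested only through the peroxide library. Of the 11 phosphate genes that reached 10 RPKM in unstressed cells, 0 were called higher and 8 lower. The low-affinity hexose transporter HXT1 had 29.8 RPKM with peroxide, against 113, 59.4 and 53.7 RPKM in unstressed cells. Of 5 tested genes of mating type a, 3 were called lower in drug-free cells, with a median of -1.81, and 0 of 5 were called in either direction by limma at x100 (median -0.14, with 0 at an unadjusted p under 0.05). The difference between both effects was not tested for the list. Among them, BAR1, the protease that degrades alpha-factor, had 17.1 RPKM, against 110, 72.4 and 60.5 RPKM, and the agglutinin subunit AGA2 had 6.32 RPKM, against 44.2, 31.1 and 46.6 RPKM. In sulfur metabolism, MET16 rose by 2.23 and STR2 by 1.91, while SAM1, an S-adenosylmethionine synthetase, fell by 1.87. MET16 and STR2 averaged under 10 RPKM in unstressed cells and were tested only through the peroxide library.

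For the drug-free heat shock library, made with primer set 2, cells were filtered and moved to preheated YPD. Its values are set beside those with peroxide without a test, first for genes picked for their large rise with peroxide. TSA2 had 12240 RPKM with peroxide and 356 RPKM after heat shock, SRX1 5630 and 83.3 RPKM, GTT2 720 and 19.4 RPKM, OYE3 284 and 13.4 RPKM, and FLR1 151 and 0.184 RPKM. For 4 chaperone and general stress genes chosen after their values were seen, the order was the other way round, with HSP12 at 6718 RPKM with peroxide and 35200 RPKM after heat shock, HSP104 at 1650 and 13180 RPKM, HSP42 at 333 and 2026 RPKM, and SSA4 at 196 and 20710 RPKM.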
